A study of Homo sapiens with 4 samples.

Results

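The collagen genes of KMS11 cells were taken as every gene whose symbol, in the authors' deposited table, has the form COL, a number, A and a number. The rule gave 50 of 62069 Ensembl identifiers, which carry 44 symbols. COL11A2 has 7 identifiers, of which 6 lie on alternative haplotypes of the MHC region and held 0 fragments in all libraries, so the identifier on chromosome 6 stands for it below. KMS11 is an established line of myeloma cells, a plasma cell malignancy, and carries the t(4;14) translocation, which places the histone methyltransferase gene NSD2 under an immunoglobulin enhancer. RNA was sequenced in 2 libraries labelled NSD2 knockdown and in 2 libraries labelled control. Titles name the hairpin of the knockdown libraries shM2, and the alignment names behind the control counts read shScr, per the file headers. Both groups received lentivirus carrying an shRNA in the presence of polybrene at 10 µg/mL, had their medium changed after 24 h and were harvested at 96 h. Separate cultures behind the libraries of a group are not stated in the labels, so p-values measure the spread between these libraries, which may be technical.

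Collagens are secreted or membrane-bound proteins whose chains wind into a triple helix through repeats that begin with glycine. Fibrillar collagens build the tension-bearing fibrils of bone, skin and cartilage, and the fibril-associated collagens with interrupted triple helices, called FACITs, decorate those fibrils. Type IV chains form the sheet of basement membranes, and further classes form beaded filaments, anchoring fibrils or membrane receptors. Collagens are made mainly by fibroblasts, cartilage, bone and epithelial or endothelial cells, and the plasma cell is known as a cell that contacts collagen in the bone marrow more than as one that makes it.

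The libraries labelled knockdown held 48334736 and 55059566 counted fragments, and the control libraries held 50417758 and 46728940. NSD2 stood at 919 and 1156 CPM (fragments per 1000000 counted, after TMM scaling for library composition) in the libraries labelled knockdown, against 1121 and 1471 CPM in the control libraries. The groups overlapped and the log2 fold change of -0.32 (SE 0.15) did not pass the test (adjusted p = 0.244, edgeR), so the first group is called by its label throughout. NSD2 did pass without control library 1 (adjusted p = 0.0196) and without the second library labelled knockdown (adjusted p = 0.0268). Its log2 fold change was -0.12 without control library 2 (adjusted p = 0.731), -0.16 without the first library labelled knockdown (adjusted p = 0.632) and -0.11 when gene length and GC content entered the model (adjusted p = 0.663). Plasma cell markers were abundant, with all 11 tested and summed levels of 8531 and 9403 CPM in the libraries labelled knockdown against 9292 and 9335 CPM in the control libraries. SLAMF7 and CD38 fell among them and 0 rose, beside 4.19% lower and 1.74% higher over all genes tested. CD38 rests on 14 and 2 fragments in the libraries labelled knockdown against 78 and 33 in the control libraries. It reached the level of the filter on low counts in both libraries of the control group only. Its call was lost with robust empirical Bayes (adjusted p = 0.0525).

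Collagen transcripts were rare and unevenly spread over the family. All 44 genes together took 0.0205% and 0.0226% of the fragments in the libraries labelled knockdown, against 0.0187% and 0.0224% in the control libraries. Levels of different genes were compared per kb of exonic length, which may differ from the length of the transcript expressed. On this scale 4 genes held most of the total. COL9A3, COL9A2, COL4A4 and COL4A3 made up 77.6% and 77.8% of the summed CPM per kb in the libraries labelled knockdown, against 82.0% and 77.3% in the control libraries. A mean of at least 10 CPM over the 4 libraries was reached by 5 genes and a mean of at least 1 CPM by 14.

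**Figure D1:**
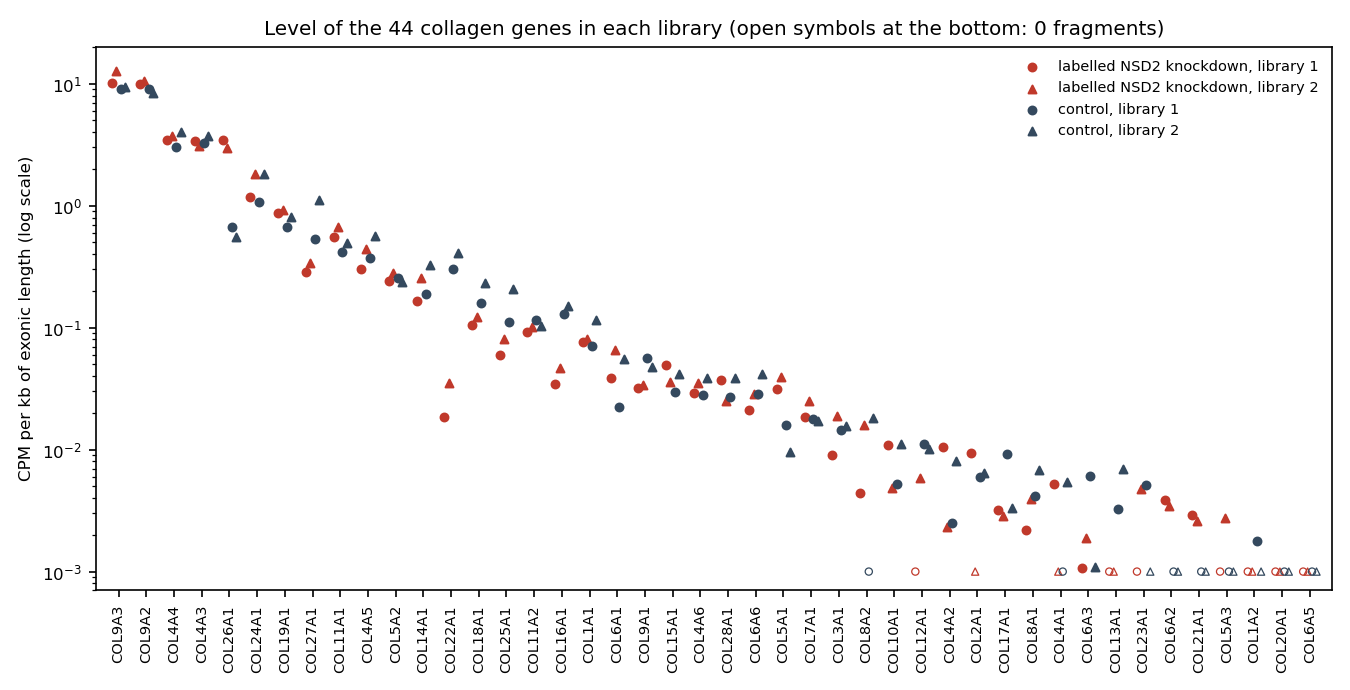
Level of each of the 44 collagen genes in CPM per kb of exonic length on a log scale, ordered by mean; red symbols are the libraries labelled NSD2 knockdown, dark symbols the control libraries, and open symbols at the bottom mark 0 fragments. COL9A3 and COL9A2 lead the order, and the red and dark symbols of COL26A1 and COL22A1 lie far apart.

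In this order COL9A3 came first, with 11.5 ± 1.75 CPM per kb in the libraries labelled knockdown and 9.26 ± 0.324 CPM per kb in the control libraries (SD, n = 2 each). COL9A2 followed with 10.2 ± 0.407 CPM per kb in the libraries labelled knockdown and 8.74 ± 0.557 CPM per kb in the control libraries. The spreads of these neighbours met in both groups. COL4A4 (3.57 ± 0.185 labelled knockdown, 3.53 ± 0.683 control) and COL4A3 (3.24 ± 0.193 labelled knockdown, 3.50 ± 0.353 control) likewise did not differ beyond their spread in either group. COL26A1 stood beside them at 3.24 ± 0.347 CPM per kb in the libraries labelled knockdown but at 0.608 ± 0.0802 in the control libraries. COL24A1 came next at 1.498 ± 0.458 CPM per kb labelled knockdown and 1.45 ± 0.518 control, and every further collagen gene lay below 1 CPM per kb in the mean of both groups.

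The other end of the order was close to the detection limit. Of the 44 genes, 18 did not pass the filter on low counts and were not tested, and their highest count in any library was 7 fragments. COL20A1 and COL6A5 had 0 fragments in every library, and a count of 0 allows up to 3 counts, or 0.0545 to 0.0642 CPM depending on the library. COL1A2 and COL3A1, chains of the main collagens of connective tissue, were in this set. COL1A2 had 0 and 0 fragments in the libraries labelled knockdown and 1 and 0 in the control libraries, and COL3A1 had 3 and 7 in the libraries labelled knockdown and 5 and 5 in the control libraries. At this depth no difference between the groups was detectable for these 18 genes.

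Fibroblast markers were scarce too. Of 12 listed, 2 were tested, FBN1 and TWIST1, and 0 were called by edgeR, DESeq2 or limma-voom, beside 5.93% called by edgeR over all genes tested. Of the 2, 1 lay at an unadjusted p below 0.05, a level whose share over all genes is not given here. LUM, DPT and TCF21 were at 0 in all libraries. The summed level of the list was 10.5 and 8.13 CPM in the libraries labelled knockdown against 14.5 and 11.1 CPM in the control libraries. TWIST1 alone gave 6.02 and 4.26 CPM of it in the libraries labelled knockdown and 10.1 and 5.92 CPM in the control libraries. Endothelial markers summed to 0.290 and 0.479 CPM in the libraries labelled knockdown against 0.613 and 0.721 CPM in the control libraries. Of 8 listed 7 were found and 1 tested, VWF, at an unadjusted p below 0.05 but called by none of the 3 tools, and CDH5 and ERG were at 0 in all.

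Of the 26 collagen genes tested, 1 rose and 3 fell in the libraries labelled knockdown, at an adjusted p below 0.05 over all 17172 genes. Over all genes tested, 1.74% were called higher and 4.19% lower, or 5.93% in either direction, against 15.4% of the collagen genes. Without the first library labelled knockdown or without control library 1, more genes were called, among collagens and among all genes tested. The share of 15.4% rests on 4 genes, and 1 of them, COL22A1, reached the level of the filter in both libraries of the control group only. Another 4 tested members, COL5A1, COL6A1, COL7A1 and COL15A1, reached it in both libraries of the group labelled knockdown only. The groups did not overlap in 15 of the 26 genes (7 higher and 8 lower), which is 57.7%, close to the 53.2% seen over all genes. The median log2 fold change of the tested collagen genes was -0.05, against -0.00165 over all genes tested.

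**Figure D2:**
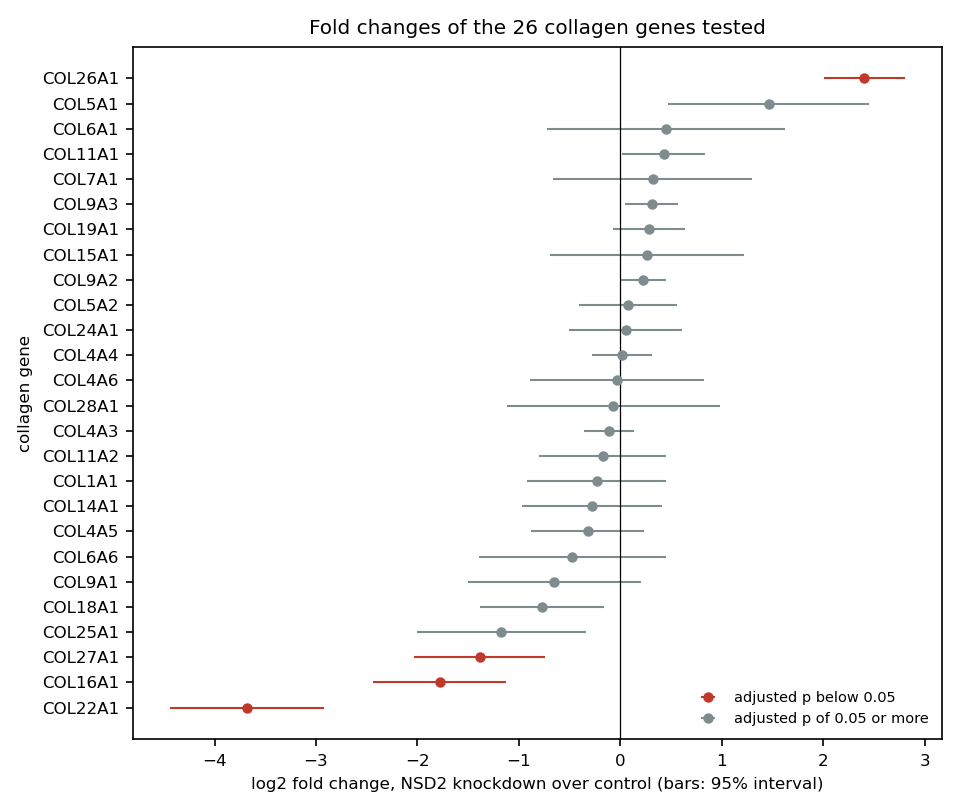
Log2 fold change, libraries labelled NSD2 knockdown over control, of the 26 collagen genes tested, with 95% intervals from the edgeR model; red marks an adjusted p below 0.05. COL26A1 lies at 2.41, and COL22A1, COL16A1 and COL27A1 lie at -3.68, -1.78 and -1.39.

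COL26A1 was the single collagen gene that rose. It encodes a secreted chain that carries an EMI domain beside its collagenous repeats (ENSG00000160963, chromosome 7, 101006101 to 101202304, plus strand, GRCh37). It stood at 11.0 and 9.43 CPM in the libraries labelled knockdown, against 2.10 and 1.74 CPM in the control libraries. Both libraries labelled knockdown lay far above both controls. The level was 5.31-fold higher, or 2.41 on the log2 scale (SE 0.18, interval at 95% 2.01 to 2.81, adjusted p = 0.000248, edgeR) and it was the 11th largest of the 299 rises. The call held in all 15 alternatives, with log2 fold changes from 2.27 to 2.55. The tested genes next to COL26A1 did not pass the test: IFT22, 41.0 kb before it, had a log2 fold change of 0.17 (adjusted p = 0.490), and CUX1, 256.9 kb after it, one of -0.05 (adjusted p = 0.818).

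COL22A1 had the largest difference in the family. It encodes a FACIT chain known from tissue junctions such as that of muscle and tendon (ENSG00000169436, chromosome 8, 139600478 to 139926249, minus strand, GRCh37). It was counted 7 and 15 times in the libraries labelled knockdown, against 119 and 150 times in the control libraries, or at 0.145 and 0.276 CPM in the libraries labelled knockdown against 2.35 and 3.18 CPM in the control libraries. The groups were far apart, though the lower one rests on few fragments. COL22A1 fell by 3.68 on the log2 scale (SE 0.34, interval at 95% -4.44 to -2.92, adjusted p = 0.00063, edgeR), 12.8-fold lower and the 13th largest of the 719 falls. The call held in all 15 alternatives, from -4.24 to -3.31. Its nearest tested neighbours, TRAPPC9 at 816.3 kb and LINC02055 at 1603 kb, had log2 fold changes of 0.05 (adjusted p = 0.822) and 0.23 (adjusted p = 0.580).

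A second FACIT gene, COL16A1, also fell (ENSG00000084636, chromosome 1, 32117848 to 32169920, minus strand, GRCh37). Its product is found with fibrils and at contacts of cells with matrix. COL16A1 had 0.331 and 0.442 CPM in the libraries labelled knockdown, from 16 and 24 fragments, against 1.25 and 1.44 CPM in the control libraries, from 63 and 68 fragments. All control values exceeded all values labelled knockdown. The fall was 3.44-fold (-1.78 on the log2 scale, SE 0.29, interval at 95% -2.44 to -1.13, adjusted p = 0.00794, edgeR), and it held in all 15 alternatives. COL16A1 shares 106 exonic bases, 1.11% of its exonic length, with an unnamed gene on the other strand. Of its tested neighbours, ADGRB2, an adhesion receptor gene 22.8 kb away, fell too, with 1.39 and 1.57 CPM in the libraries labelled knockdown against 2.81 and 3.50 CPM in the control libraries (log2 fold change -1.09, adjusted p = 0.018). PEF1, 7.4 kb away on the other side, had a log2 fold change of 0.06 (adjusted p = 0.762).

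COL27A1, a fibrillar collagen gene of cartilage, fell as well (ENSG00000196739, chromosome 9, 116917840 to 117074791, plus strand, GRCh37). It stood at 4.03 and 4.75 CPM in the libraries labelled knockdown, against 7.50 and 15.5 CPM in the control libraries. The groups did not overlap, but control library 2 stood far above control library 1. It was 2.61-fold lower, -1.39 on the log2 scale (SE 0.29, interval at 95% -2.03 to -0.74, adjusted p = 0.0227, edgeR). The log2 value was -0.78 without control library 2 (adjusted p = 0.0108) and -1.81 without control library 1, and the call was lost with robust empirical Bayes (adjusted p = 0.0633). ZNF618, a zinc finger gene 99.0 kb before COL27A1, fell too, with 15.3 and 13.5 CPM in the libraries labelled knockdown against 23.4 and 26.9 CPM in the control libraries (log2 fold change -0.81, adjusted p = 0.00588). ORM2, 17.4 kb after COL27A1, had a log2 fold change of -0.15 (adjusted p = 0.845). Its level was low, at 0.620 and 0.792 CPM in the libraries labelled knockdown against 1.01 and 0.551 CPM in the control libraries. The next tested genes were not called either: AKNA, 21.6 kb after COL27A1, was at -0.40 (adjusted p = 0.0869), and RGS3, 557.8 kb before it, at -0.50 (adjusted p = 0.196).

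**Figure D3:**
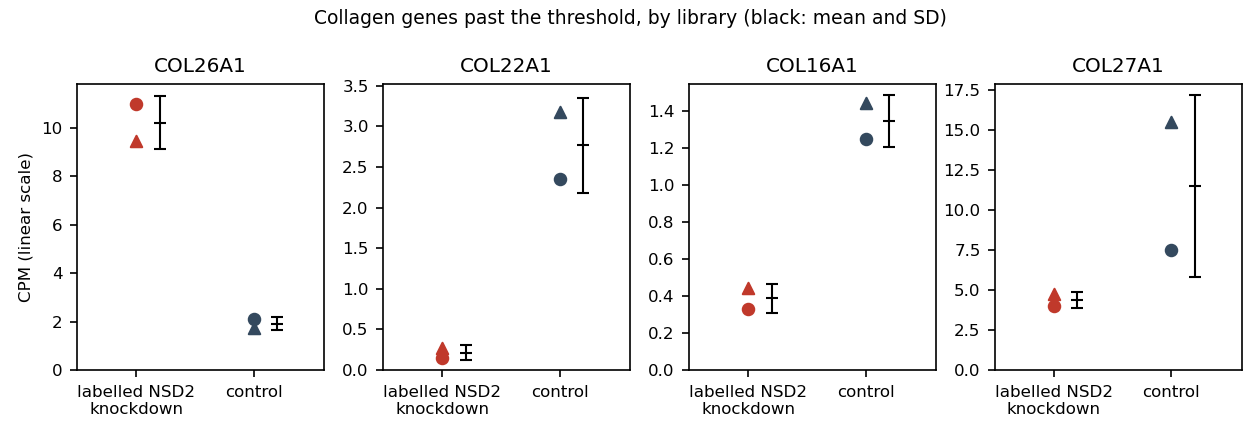
CPM of the 4 collagen genes past the threshold in each library, on linear axes from 0, with the mean and SD of each group in black (circles: library 1, triangles: library 2). COL26A1 is higher in both libraries labelled NSD2 knockdown, and the other 3 are lower in both.

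The promoter windows of the 3 called genes that RefSeq gave are shown because these members moved in opposite directions; they are the letters from 250 bases before to 50 after the gene start, on GRCh38.p14, read along the gene's strand. The window of COL26A1 is chr7:101362625-101362924 on the plus strand, that of COL16A1 chr1:31703968-31704267 on the minus strand and that of COL27A1 chr9:114155287-114155586 on the plus strand. Capitals mark the GC box letters GGGCGG and the TATA box letters TATAAA on either strand.
COL26A1: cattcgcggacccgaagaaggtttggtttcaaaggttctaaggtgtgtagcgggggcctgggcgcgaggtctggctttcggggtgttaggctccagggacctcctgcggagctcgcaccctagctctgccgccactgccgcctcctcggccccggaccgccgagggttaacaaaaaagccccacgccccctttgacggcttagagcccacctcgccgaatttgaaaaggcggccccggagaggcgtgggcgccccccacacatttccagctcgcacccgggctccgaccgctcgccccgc
COL16A1: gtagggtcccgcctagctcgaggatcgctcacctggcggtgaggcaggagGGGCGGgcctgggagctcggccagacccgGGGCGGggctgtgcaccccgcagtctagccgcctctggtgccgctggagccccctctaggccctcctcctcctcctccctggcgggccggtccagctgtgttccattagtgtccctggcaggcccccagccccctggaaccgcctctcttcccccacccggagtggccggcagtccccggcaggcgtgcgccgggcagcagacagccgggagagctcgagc
COL27A1: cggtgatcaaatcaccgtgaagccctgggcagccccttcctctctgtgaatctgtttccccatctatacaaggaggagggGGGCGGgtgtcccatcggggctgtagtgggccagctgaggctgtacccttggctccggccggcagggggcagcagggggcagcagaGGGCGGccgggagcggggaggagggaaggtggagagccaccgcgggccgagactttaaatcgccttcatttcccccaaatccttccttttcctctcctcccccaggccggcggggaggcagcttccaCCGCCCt
The GC box letters occurred 0 times in the COL26A1 window, 2 times in that of COL16A1 and 3 times in that of COL27A1, and the TATA box letters in none of these 3. Among all 35116 RefSeq windows, 45.0% held the GC box letters and 11.5% the TATA box letters on either strand. Of the 44 windows of collagen genes, 24 held the GC box letters and 8 the TATA box letters. The E-box letters CACGTG, also searched, were in 0 of the 44 and in 7.26% of all windows. These matches describe the sequence only.

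The most abundant collagen transcripts, those of type IX, a FACIT trimer that coats the type II fibrils of cartilage, came almost only from 2 of its 3 chain genes. COL9A3 stood at 49.4 and 61.3 CPM in the libraries labelled knockdown, against 43.6 and 45.8 CPM in the control libraries. COL9A2 stood at 41.3 and 43.7 CPM in the libraries labelled knockdown, against 37.9 and 34.7 CPM in the control libraries. Both libraries labelled knockdown were above both controls for each gene. COL9A1, the gene of the α1 chain, had 11 and 13 fragments in the libraries labelled knockdown and 20 and 16 in the control libraries. Per kb, COL9A1 was thus at 0.00314 and 0.00266 of the level of COL9A3 in the libraries labelled knockdown, and at 0.00619 and 0.00505 of it in the control libraries. The 2 abundant chains stayed close to each other, with COL9A2 at 0.973 and 0.829 of COL9A3 per kb in the libraries labelled knockdown and at 1.01 and 0.880 of it in the control libraries.

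None of the 3 type IX genes passed the test. The groups did not overlap for any of them, as was so for 53.2% of all genes tested. The log2 fold changes were 0.31 for COL9A3 (SE 0.12, interval at 95% 0.05 to 0.57, adjusted p = 0.155) and 0.23 for COL9A2 (0.01 to 0.45, adjusted p = 0.213). For COL9A1 the value was -0.65 (-1.51 to 0.21, adjusted p = 0.352). Of the other FACIT genes, COL19A1, the neighbour of COL9A1 on chromosome 6, stood at 7.32 and 7.67 CPM in the libraries labelled knockdown against 5.54 and 6.79 CPM in the control libraries (log2 fold change 0.28, adjusted p = 0.329). COL14A1, whose product binds type I fibrils, stood at 1.43 and 2.19 CPM in the libraries labelled knockdown against 1.602 and 2.82 CPM in the control libraries (log2 fold change -0.28, adjusted p = 0.643), and its groups overlapped. In all, 7 of 10 FACIT genes were tested, of which 2 fell and 0 rose. Over all genes tested, 4.19% were lower and 1.74% higher. Of the 2 that fell, COL22A1 reached the filter level in both libraries of the control group only. COL9A3 passed the threshold without the first library labelled knockdown (adjusted p = 0.0385).

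Type IV transcripts came mostly from the α3 and α4 chains, which with α5 form the basement membrane network of the kidney glomerulus and are the genes of Alport syndrome. COL4A3 stood at 30.8 and 28.3 CPM in the libraries labelled knockdown, against 29.7 and 34.2 CPM in the control libraries. COL4A4 stood at 34.0 and 36.6 CPM in the libraries labelled knockdown, against 30.1 and 39.7 CPM in the control libraries. The groups overlapped for both genes, and neither passed the test. The 95% interval of the log2 fold change was -0.36 to 0.14 for COL4A3 (adjusted p = 0.606) and -0.28 to 0.31 for COL4A4 (adjusted p = 0.961).

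COL4A3 and COL4A4 lie head to head on chromosome 2, with 452 bases between their starts in the GRCh37 table, and their levels ran together. Per kb, COL4A3 was at 0.983 and 0.839 of COL4A4 in the libraries labelled knockdown and at 1.07 and 0.935 of it in the control libraries. Their RefSeq windows on GRCh38.p14 share 82 bases and are shown as the shared upstream sequence of the most abundant neighbouring pair of the family, chr2:227164374-227164673 on the plus strand for COL4A3 and chr2:227164156-227164455 on the minus strand for COL4A4, with capitals as above.
COL4A3: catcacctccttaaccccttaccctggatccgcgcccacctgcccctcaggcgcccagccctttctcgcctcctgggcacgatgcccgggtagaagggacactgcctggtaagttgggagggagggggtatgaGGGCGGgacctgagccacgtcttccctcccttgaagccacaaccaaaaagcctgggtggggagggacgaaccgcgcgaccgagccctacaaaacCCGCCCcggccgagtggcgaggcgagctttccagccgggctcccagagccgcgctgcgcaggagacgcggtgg
COL4A4: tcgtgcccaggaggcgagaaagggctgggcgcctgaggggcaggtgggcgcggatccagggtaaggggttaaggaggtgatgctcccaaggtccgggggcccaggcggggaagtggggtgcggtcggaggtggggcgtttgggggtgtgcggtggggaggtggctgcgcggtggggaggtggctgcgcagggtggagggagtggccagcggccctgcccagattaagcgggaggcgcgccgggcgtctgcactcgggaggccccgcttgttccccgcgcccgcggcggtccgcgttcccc
The GC box letters occurred 2 times in the COL4A3 window and 0 times in the COL4A4 window, and the TATA box letters in neither.

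The pair of COL4A5 and COL4A6 was less even. These genes have 347 bases between their starts on chromosome X, yet COL4A5 was 10.5 and 12.5 times as abundant per kb as COL4A6 in the libraries labelled knockdown, and 13.3 and 14.7 times in the control libraries. COL4A5 stood at 2.67 and 3.85 CPM in the libraries labelled knockdown against 3.24 and 4.92 CPM in the control libraries (log2 fold change -0.32, adjusted p = 0.496). COL4A6 had 14 and 19 fragments in the libraries labelled knockdown against 14 and 18 in the control libraries (log2 fold change -0.03, adjusted p = 0.974). COL4A1 and COL4A2, the chains found in nearly all basement membranes, were not tested, with 2 and 0 fragments of COL4A1 in the libraries labelled knockdown against 0 and 2 in the control libraries. COL4A2 had 4 and 1 in the libraries labelled knockdown against 1 and 3 in the control libraries. Of the 6 type IV genes, 4 were tested and 0 were called by edgeR, beside 5.93% called in either direction over all genes tested. Of the 4, 0 were called by DESeq2 or limma-voom. At an unadjusted p below 0.05 there were 0 of the 4, and the share of all genes at that level is not given here.

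Among the 11 fibrillar genes, 7 were tested, COL27A1 fell and 0 rose, beside 4.19% lower and 1.74% higher over all genes tested. COL24A1, a fibrillar collagen gene first described in bone and eye of mice, was the most abundant of the 11 per kb. It stood at 11.2 and 17.4 CPM in the libraries labelled knockdown against 10.3 and 17.3 CPM in the control libraries. The groups overlapped almost fully, and the 95% interval of its log2 fold change was -0.50 to 0.61 (adjusted p = 0.931). COL24A1 was 4.07 and 5.36 times as abundant per kb as COL27A1 in the libraries labelled knockdown, against 2.02 and 1.63 times in the control libraries. COL11A1, a chain of the type XI collagen that nucleates cartilage fibrils, stood at 4.59 and 5.56 CPM in the libraries labelled knockdown against 3.46 and 4.09 CPM in the control libraries. The groups did not overlap, but the log2 fold change of 0.43 (0.02 to 0.84, adjusted p = 0.203) missed the threshold. Its partner COL11A2 had 30 and 37 fragments in the libraries labelled knockdown against 39 and 33 in the control libraries (log2 fold change -0.17, adjusted p = 0.762), and COL2A1, the third chain gene of type XI, had 3 and 0 in the libraries labelled knockdown against 2 and 2 in the control libraries. COL11A1 was 6.04 and 6.66 times as abundant per kb as COL11A2 in the libraries labelled knockdown, against 3.66 and 4.77 times in the control libraries.

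Type V and type I chains were unequal within their trimers as well. COL5A2 stood at 1.72 and 1.99 CPM in the libraries labelled knockdown against 1.82 and 1.70 CPM in the control libraries (log2 fold change 0.08, adjusted p = 0.871). COL5A1, its usual partner, had 17 and 24 fragments in the libraries labelled knockdown against 9 and 5 in the control libraries. Its log2 fold change of 1.46 (0.47 to 2.46) did not pass the threshold (adjusted p = 0.0869). Per kb COL5A1 was at 0.131 and 0.142 of COL5A2 in the libraries labelled knockdown and at 0.0626 and 0.0400 of it in the control libraries. COL1A1 had 36 and 43 fragments in the libraries labelled knockdown against 35 and 53 in the control libraries (log2 fold change -0.23, adjusted p = 0.704), while COL1A2, the second chain gene of type I, was at the limit of detection as given above.

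The remaining classes held few transcripts. COL18A1, the basement membrane collagen gene whose product releases endostatin, stood at 0.889 and 1.05 CPM in the libraries labelled knockdown against 1.35 and 1.99 CPM in the control libraries. The groups did not overlap, but its log2 fold change of -0.78 (-1.39 to -0.17) missed the threshold (adjusted p = 0.131). COL18A1 shares 1401 bases, or 16.4% of its exonic length, with SLC19A1 on the other strand, and counting ignored strand, so its gene of origin is uncertain there. COL25A1, a transmembrane collagen gene whose ectodomain is found in amyloid plaques, had 18 and 27 fragments in the libraries labelled knockdown against 35 and 61 in the control libraries (log2 fold change -1.17, from -2.00 to -0.34, adjusted p = 0.0986). Without control library 1, both COL18A1 (adjusted p = 0.0269) and COL25A1 (adjusted p = 0.00507) passed the threshold. COL25A1 was the single transmembrane collagen gene of 4 that was tested. The beaded filament genes of type VI summed to 0.455 and 0.682 CPM in the libraries labelled knockdown against 0.514 and 0.721 CPM in the control libraries. Of these 5 genes 2 were tested, and 0 were called by edgeR, DESeq2 or limma-voom or at an unadjusted p below 0.05. Over all genes tested, edgeR called 5.93% in either direction. The short-chain network genes COL8A1, COL8A2 and COL10A1 summed to 4 and 7 fragments in the libraries labelled knockdown against 3 and 9 in the control libraries, and none was tested. COL7A1, the anchoring fibril gene, COL15A1, COL28A1 and COL6A6 were tested at few fragments, with log2 fold changes of 0.32, 0.26, -0.07 and -0.47 and no call.

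A difference that did not follow the groups ran through the family. In 16 of the 26 tested collagen genes (61.5%), library 2 was above library 1 in both groups, against 29.7% of all genes tested. The median log2 ratio of library 2 over library 1 over the 26 genes was 0.26 in the group labelled knockdown and 0.42 in the control group, against 0.00107 and -0.00331 over all genes tested. COL24A1 showed it with log2 ratios of 0.63 in the group labelled knockdown and 0.75 in the control group, COL14A1 with 0.62 labelled knockdown and 0.82 control, and COL4A5 with 0.53 labelled knockdown and 0.60 control, each larger than the difference between the groups. For COL27A1 the ratio was 0.24 in the group labelled knockdown and 1.05 in the control group. COL26A1 was the single tested collagen gene with library 2 below library 1 in both groups, at -0.22 in the group labelled knockdown and -0.27 in the control group. The labels do not say what the library numbers stand for. Within number 1 and within number 2, the log2 ratio of the library labelled knockdown over the control library was 2.39 and 2.44 for COL26A1, -4.02 and -3.53 for COL22A1, -1.91 and -1.71 for COL16A1, and -0.89 and -1.71 for COL27A1.

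**Figure D4:**
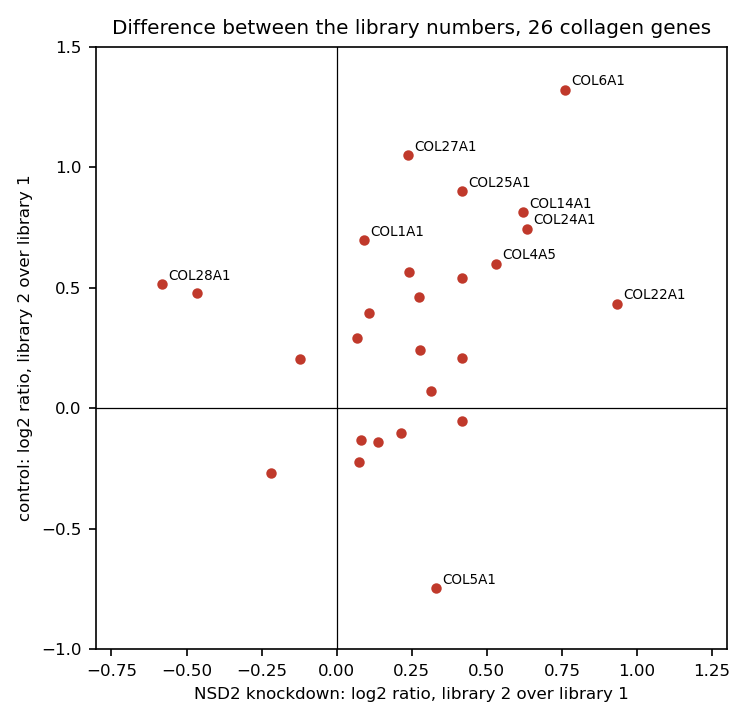
Log2 ratio of library 2 over library 1 for the 26 collagen genes tested, in the group labelled NSD2 knockdown (x axis) and in the control group (y axis). Most points, 16 of 26, lie in the upper right part, where library 2 is higher in both groups.

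Genes that fold, process, cross-link, cut and bind collagens were read from 7 lists. In the list of folding and modification enzymes, P3H2, a prolyl 3-hydroxylase of collagen, rose among 20 tested and 0 fell, beside 1.74% higher and 4.19% lower over all genes tested. P3H2 stood at 4.88 and 6.84 CPM in the libraries labelled knockdown against 2.59 and 3.18 CPM in the control libraries (log2 fold change 1.02, adjusted p = 0.0216), and its adjusted p was 0.0874 without the second library labelled knockdown. Of the 21 genes listed, 20 passed the filter on low counts. P4HA3 did not, with 2 and 3 fragments in the libraries labelled knockdown against 1 and 1 in the control libraries. P4HB, a subunit of prolyl 4-hydroxylase, stood at 845 and 729 CPM in the libraries labelled knockdown against 803 and 749 CPM in the control libraries. SERPINH1, the collagen chaperone HSP47, was at 24.9 and 15.8 CPM in the libraries labelled knockdown against 32.4 and 20.7 CPM in the control libraries, with overlapping groups. In the list of procollagen export genes 0 of 13 tested were called by edgeR, DESeq2 or limma-voom, beside 5.93% called by edgeR over all genes tested. Of the 13, 4 lay at an unadjusted p below 0.05, and the share of all genes at that level is not given here. The median log2 fold change of the 13 was 0.04. The median was 0.01 in the folding list, -0.18 in processing and cross-linking, -0.30 in the receptors, -0.30 in other basement membrane genes, 0.08 in proteases and inhibitors and -0.06 in collagen-like proteins, against -0.00165 over all genes tested.

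Processing and cross-linking genes gave 2 falls and 0 rises among 13 tested, where 4.19% of all genes tested fell and 1.74% rose. PXDN, the peroxidase that forms the sulfilimine cross-links of type IV collagen, fell to 35.2 and 30.3 CPM in the libraries labelled knockdown, against 90.4 and 93.3 CPM in the control libraries (log2 fold change -1.49, SE 0.10, adjusted p = 0.000218). ADAMTS3, a procollagen N-proteinase, fell to 2.05 and 2.12 CPM in the libraries labelled knockdown, against 4.33 and 3.86 CPM in the control libraries (log2 fold change -0.97, adjusted p = 0.0155). Among collagen receptors 2 of 10 tested fell and 0 rose. DDR1, a receptor tyrosine kinase for collagen, was at 0.207 and 0.111 CPM in the libraries labelled knockdown against 0.910 and 0.742 CPM in the control libraries (log2 fold change -2.39, adjusted p = 0.00814). DDR1 reached the filter level in both libraries of the control group only, with 10 and 6 fragments in the libraries labelled knockdown against 46 and 35 in the control libraries. ADGRG1, an adhesion receptor that binds type III collagen, was at 11.0 and 9.03 CPM in the libraries labelled knockdown against 25.7 and 24.4 CPM in the control libraries (log2 fold change -1.32, adjusted p = 0.000739). ITGB1, the shared β chain of the collagen-binding integrins, stood at 102 and 105 CPM in the libraries labelled knockdown against 122 and 125 CPM in the control libraries (log2 fold change -0.26, adjusted p = 0.126).

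Other components of basement membranes gave 3 falls and 0 rises among 12 tested, beside 4.19% lower and 1.74% higher over all genes tested. HSPG2, which encodes the heparan sulfate proteoglycan perlecan, fell to 1.82 and 1.70 CPM in the libraries labelled knockdown, against 6.19 and 7.61 CPM in the control libraries (log2 fold change -1.97, adjusted p = 0.000652). FRAS1 and FREM2, whose products form a complex below epithelia, fell with log2 fold changes of -1.71 (adjusted p = 0.00511) and -1.38 (adjusted p = 0.014). Among proteases and inhibitors 2 of 11 tested rose and 0 fell. CTSB, a lysosomal protease gene, rose to 1556 and 2209 CPM in the libraries labelled knockdown, against 555 and 628 CPM in the control libraries (log2 fold change 1.67, adjusted p = 0.00063). CTSK, which encodes the collagen-degrading cathepsin of osteoclasts, rose to 20.3 and 21.6 CPM in the libraries labelled knockdown, against 15.7 and 14.8 CPM in the control libraries (log2 fold change 0.46, adjusted p = 0.0436). The call of CTSK was lost in 6 of 15 alternatives, with an adjusted p of 0.281 without the second library labelled knockdown.

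Other proteins with a collagen-like domain gave 1 rise and 0 falls among 16 tested, beside 1.74% higher and 4.19% lower over all genes. The rise was that of EMID1, which like COL26A1 encodes an EMI domain and a collagenous stretch, to 8.69 and 10.0 CPM in the libraries labelled knockdown, against 3.36 and 3.58 CPM in the control libraries (log2 fold change 1.43, SE 0.16, adjusted p = 0.00128). Genes listed as markers of other cell types moved in part with the groups, and the presence of such cells was not tested. Of the epithelial markers 3 of 5 tested fell, EPCAM, KRT18 and CDH1, and the list summed to 38.0 and 36.5 CPM in the libraries labelled knockdown against 71.4 and 58.1 CPM in the control libraries, with KRT5 at 0 in all. Smooth muscle and pericyte markers summed to 13.4 and 11.0 CPM in the libraries labelled knockdown against 18.6 and 23.2 CPM in the control libraries, with DES at 0. MYH11, which shares exonic bases with NDE1, was called lower of 4 tested. Markers of T cells, NK cells and myeloid cells summed to 4.61 and 4.88 CPM in the libraries labelled knockdown against 8.37 and 8.76 CPM in the control libraries, with NCAM1 called lower of 3 tested and CD3D at 0. The libraries are bulk RNA of the KMS11 line, in which fewer cells expressing a gene and less RNA per cell cannot be told apart. The part of these markers in the collagen differences was not tested.

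**Figure D5:**
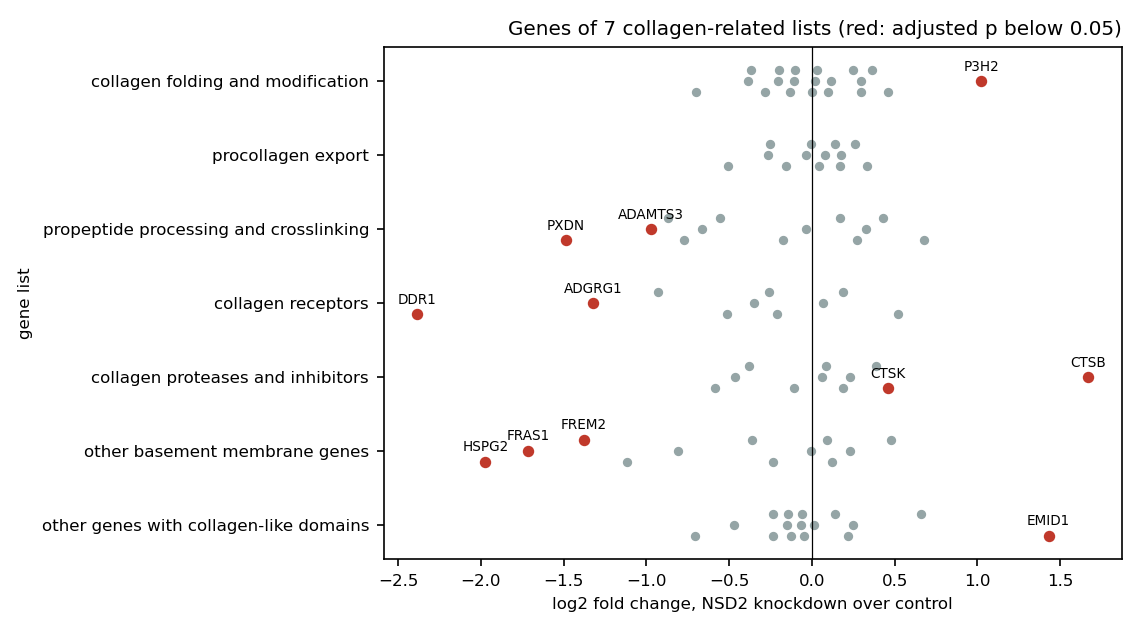
Log2 fold change, libraries labelled NSD2 knockdown over control, of the tested genes of 7 lists of collagen-related genes; each point is a gene, and red marks an adjusted p below 0.05. The called receptors, cross-linking and basement membrane genes lie left of 0, and P3H2, CTSB, CTSK and EMID1 lie right of it.

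In the authors' deposited table, made with DESeq2 and headed M2 over LUC, 3 collagen genes of the 25 with an adjusted p lay below 0.05. The alignment names behind the control counts used here read shScr, so the control of that comparison may be another one. The authors' deposited table gave COL26A1 a log2 fold change of 2.39 (adjusted p = 1.38e-12), COL22A1 one of -3.44 (adjusted p = 9.49e-07) and COL27A1 one of -1.34 (adjusted p = 0.00431). For COL16A1 the authors' deposited table gave -1.66 with an adjusted p of 0.201, above the threshold. The base mean in the authors' deposited table was above the highest of the 4 counts for 14 of the 44 collagen genes, COL7A1 among them with 389.5 against at most 15 fragments, so that model held libraries beyond the 4 used here.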

How the data were processed

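For each of the 4 libraries the authors deposited raw counts of fragments per gene. The submitters' processing notes name GRCh37, Trim Galore 0.3.7, STAR 2.5.3, Picard and, from Subread 1.4.6, featureCounts. Per the file headers, counting ignored strand, took read pairs as fragments and used alignments marked as without duplicates. The authors' deposited table holds log2 fold changes with standard errors, a Wald statistic (a score), p-values, a base mean (a signal over normalized libraries) and exonic lengths. It also has 4 columns of counts that were not used. Each count file ends in 1 blank line, which was left out.

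The main test was edgeR's quasi-likelihood test (version 4.0.16, R 4.3.3) on a model of group alone, after TMM scaling and filterByExpr, which asks for about 10 counts (0.203 CPM) in at least 2 libraries. Benjamini-Hochberg adjustment ran over 17172 genes with a threshold of 0.05. The coefficient of biological variation was 9.81%, on 2 residual degrees of freedom. DESeq2 1.42.0 and limma 3.58.1 (voom) were among the 15 alternatives, with other scalings and filters, robust empirical Bayes, a replicate block and each library left out. Terms for GC content and length, from GENCODE 29 transcripts and the exonic lengths, were added after the data were seen. The procedure was tested on simulated counts, drawn with the same dispersion for all genes. They held no difference between library numbers, so that test does not cover the one seen here.

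The collagen genes and lists were chosen with earlier results of these data known. By rule, values of each library are given for collagen genes past the threshold or tested and averaging 1 CPM or more, and trimer partners get their fold change. From each list up to 4 genes in each direction past the threshold are named, by smallest adjusted p, and the genes nearest to or overlapping a called collagen. COL25A1, P4HA3, P4HB, SERPINH1, ITGB1, AKNA and RGS3 were named after their values were seen. Of the lists' genes, 2 stand in 2 lists (SDC1 and FAP). Limits at 0 cover counting error only, while intervals of fold changes come from the edgeR fit and hold the spread between libraries. Promoter sequences are those of RefSeq on GRCh38.p14, and 32 collagen genes had one. Figures were drawn with matplotlib 3.10.9.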

Additional observations from a re-analysis of the deposited data

How the results depend on the processing

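COL26A1, COL22A1 and COL16A1 kept their direction and call in all 15 alternatives, and COL27A1 in 14. Without the filter on low counts, 2 collagen genes were higher and 5 lower, against 1 and 3, and 658 and 1490 of all genes, against 299 and 719; 17 genes of the pathway lists were lower, against 7, and NSD2 passed the threshold at -0.323. With the replicate block, 4 collagen genes were higher and 5 lower, 1327 and 1992 of all genes, 11 and 23 of the pathway lists, and NSD2 passed at -0.317. With the block and terms for GC content and length these counts were 4 and 5, 1829 and 2077, and 16 and 24, and NSD2 was at -0.125 (adjusted p = 0.33, against 0.663 at -0.111 with those terms alone). COL9A3, COL11A1, COL5A1, COL18A1 and COL25A1 passed with the block (adjusted p of 0.0175, 0.0498, 0.026, 0.0177 and 0.0063), but libraries share only a number and the labels do not pair them. With GC content and length terms added to the block, COL9A3 no longer passed (0.0598) and COL19A1 did (0.0394). Deviations of libraries with the same number correlated at 0.427 over 10516 genes. Leaving out 1 library gave 1 to 2 collagen genes higher and 3 to 5 lower, 173 to 682 and 649 to 1342 of all genes, and 2 to 5 and 10 to 14 of the pathway lists. It gave a collagen median log2 fold change from -0.225 to 0.167, and NSD2 from -0.502 to -0.117. Such a fit assumes that the lone library varies like the other group. COL24A1 ran from -0.31 to 0.47 and COL14A1 from -0.63 to 0.18 in these fits, neither past the threshold. The causes were not tested. Depth limits the 18 untested genes.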
